A study of Homo sapiens with 6 samples.

Results

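Matricellular and matrix glycoprotein genes encode secreted proteins that lie between cells, and 10 of them were followed here among the 58735 genes of the count table: THBS1, THBS2, TNC, SPARC, FSTL1, POSTN, FN1, FBN1, VCAN and BGN. They were chosen by name, because THBS1, FSTL1, TNC and VCAN stood among the strongest changes between AS1842856 and DMSO, in opposite directions. The values that chose them are therefore those of the only contrast in these data, and the levels and changes of the 10 genes are given below as descriptions, with no test. All 6 libraries came from BT549, an established cell line from a basal-like breast carcinoma, grown on 10-cm dishes and treated for 48 h. DMSO, the solvent, was given to 3 samples, and AS1842856, a small molecule that binds FOXO1, to the other 3. The study describes it as hindering direct DNA binding by FOXO1. It also proposes that the compound modulates FOXO1 and is not only an inhibitor. The dose was 200 nM in the sample labels and 1 µM in the published methods, and the difference was not resolved here. The groups share 1 cell line and 1 time point, and no untreated cells were analysed here. Reads were counted per gene by RNA-Seq, and each group has replicates A, B and C.

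Matricellular proteins such as the thrombospondins, tenascin-C, SPARC and periostin bind structural matrix, growth factors and cell surface receptors, and change how cells adhere without being the main load-bearing fibres. Fibronectin and fibrillin-1 are the structural glycoproteins of the group. Fibronectin forms fibrils that integrins pull into place, and fibrillin-1 builds the microfibrils that hold latent TGF-beta. Versican and biglycan are proteoglycans, core proteins that carry chondroitin or dermatan sulfate chains. In carcinomas these proteins are made mostly by stromal fibroblasts, and also by tumour cells of mesenchymal type.

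The libraries held 15289500 to 22981832 counts, of which the 10 genes took 0.634 ± 0.0206% in DMSO and 0.395 ± 0.00277% in AS1842856 (SD, n = 3 per group). After removal of genes with too few counts, 14338 genes were tested with edgeR's quasi-likelihood test, and 56% of them passed an adjusted p of 0.05, so a call alone sets few genes apart here. The p-values measure the spread between these 3 and 3 samples, which the study describes as biological replicates. In the labelled cell type, the mesenchymal genes VIM, CDH2, ZEB1, ZEB2, TWIST1, AXL and CD44 lay between 25.9 CPM (ZEB2) and 1369.7 CPM (VIM) over the 6 libraries, and of 10 breast epithelial genes 6 were under 1 CPM (EPCAM, CDH1, KRT5, KRT14, ESR1 and PGR, at most 8 counts in any library), while KRT8, KRT18 and ERBB2 had means of 40.9, 33.9 and 46.7 CPM in DMSO and KRT19 measured 2.15 to 3.73 CPM.

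The promoters are shown first, as the sequences nearest to where these transcripts begin. RefSeq promoter windows (GRCh38.p14) were found for 10 of 10 genes, and the 250 bases before each RefSeq start were searched. GENCODE 29 places some starts further upstream: the windows of SPARC, FSTL1 and VCAN lie wholly in annotated exons, those of THBS1 and FBN1 hold no exon base, and the other 5 hold 41 to 161 exon bases. Windows from 35116 promoters served as background. The motifs were GTAAACA for forkhead factors, CTTTGAT and CTTTGAA for TCF/LEF, GGAATG for TEAD and TGANTCA for AP-1, all read on both strands, and TATAAA for a TATA box on the strand of the gene. No matches in these 10 windows overlapped each other. The sequences below are on the strand of each gene, 5′ to 3′, and capitals mark a match. They show a window with a single TEAD match (THBS1 and FBN1), an inverted pair of them (THBS2), an AP-1 match (POSTN), and none of the searched letters (TNC). They hold no annotated exon base, but those of FBN1 and THBS2 lie within the gene, in introns downstream of its first GENCODE start.
THBS1 (chr15:39580829-39581078, plus strand, capitals GGAATG): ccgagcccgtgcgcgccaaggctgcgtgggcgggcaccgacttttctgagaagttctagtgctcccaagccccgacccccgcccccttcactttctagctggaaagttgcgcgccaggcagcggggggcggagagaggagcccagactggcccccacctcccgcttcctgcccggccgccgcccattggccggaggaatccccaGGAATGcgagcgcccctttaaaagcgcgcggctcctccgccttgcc
THBS2 (chr6:169253932-169253949, minus strand, capitals GGAATG on both strands): CATTCCttcgaaGGAATG
FBN1 (chr15:48644971-48645220, minus strand, capitals GGAATG): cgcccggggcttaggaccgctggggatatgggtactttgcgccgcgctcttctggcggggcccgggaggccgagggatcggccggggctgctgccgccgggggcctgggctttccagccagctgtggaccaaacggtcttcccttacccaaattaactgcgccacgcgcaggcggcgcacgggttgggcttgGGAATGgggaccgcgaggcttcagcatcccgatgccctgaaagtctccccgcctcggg
POSTN (chr13:37598845-37599018, minus strand, capitals TGANTCA): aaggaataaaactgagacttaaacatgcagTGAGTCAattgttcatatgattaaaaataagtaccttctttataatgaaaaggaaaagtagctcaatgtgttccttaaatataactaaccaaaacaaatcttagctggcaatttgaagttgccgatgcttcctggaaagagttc
TNC (chr9:115118258-115118407, minus strand, no match): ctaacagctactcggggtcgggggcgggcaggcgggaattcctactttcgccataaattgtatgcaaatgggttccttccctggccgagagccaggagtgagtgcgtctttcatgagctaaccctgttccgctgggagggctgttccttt

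GGAATG was found in THBS1, THBS2, SPARC and FBN1, 4 of the 10 genes, against 11.9% of all promoters, and not in FSTL1, POSTN, TNC, VCAN, FN1 or BGN, so genes with lower levels stood on both sides. THBS1 held it 46 to 41 bases before the RefSeq start, FBN1 58 to 53 bases before, and SPARC 17 to 12 bases before on the other strand. In THBS2 it stood on both strands, 6 bases apart, in an inverted arrangement. The forkhead letters GTAAACA were in none of the 10 windows, against 2.98% of all promoters, and CTTTGAT also in none, against 2.26%. CTTTGAA was found in BGN alone among the 10, against 3.8% of all promoters. TGANTCA was found in POSTN alone, against 6.57%, and TATAAA in THBS2 and POSTN, against 6.8%. GC content of the windows ran from 36.4% in POSTN to 76.4% in FN1, beside a median of 58.0% over all promoters. Such matches describe letters in a window and say nothing of whether a factor binds there.

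Of the 10 genes, 9 had enough counts to be tested, and in each of those 9 the AS1842856 libraries lay wholly above or wholly below the DMSO libraries, as they did in 59.9% of all genes tested. Levels were lower with AS1842856 in THBS1, FSTL1, POSTN, FBN1, THBS2 and SPARC, and higher in VCAN, TNC and FN1. That is 6 lower and 3 higher, against 28.4% lower and 27.6% higher of all genes tested at an adjusted p under 0.05. Nothing is read from these counts, since the contrast chose the genes. The log2 fold change reached 1 in size in 6 of the 9, and it reached 2 in THBS1 and FSTL1. Of all genes tested, 10.6% reached 1 and 2.9% reached 2 with an adjusted p under 0.05. These counts too follow from how the genes were chosen. Because these were bulk libraries, fewer cells making a transcript and less transcript per cell cannot be told apart.

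**Figure D1:**
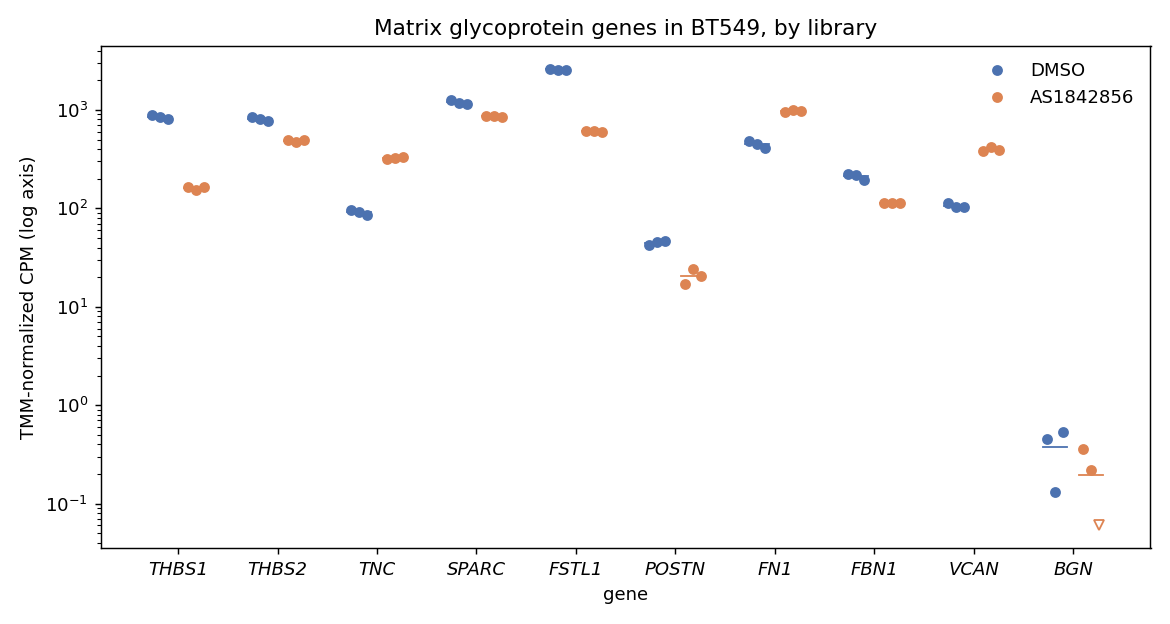
TMM-normalized CPM (log axis) of the 10 genes in each of the 6 libraries, with 3 points per group and a line at the group mean. In 9 genes the DMSO and AS1842856 points do not overlap; BGN, near 0 throughout, has 1 library at 0 counts, drawn as an open triangle at the bottom of the axis.

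THBS1 (ENSG00000137801, chromosome 15 from 39581079 to 39599466, plus strand, GRCh38) encodes thrombospondin-1, which binds CD47 and CD36, restrains angiogenesis and can activate latent TGF-beta. THBS1 measured 881, 852 and 817 CPM in DMSO replicates A, B and C, and 165, 155 and 163 CPM in AS1842856 replicates A, B and C. All AS1842856 libraries lay far below all DMSO libraries, and both groups were tight. The means were 849.8 ± 31.7 and 161 ± 5.27 CPM (SD, n = 3), 5.28-fold lower with AS1842856, a log2 fold change of -2.40 (standard error 0.04). By fold change THBS1 was the 129th from the lowest of the 14338 genes tested.

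THBS2 (ENSG00000186340, chromosome 6 from 169215780 to 169254044, minus strand) encodes thrombospondin-2, the close relative of thrombospondin-1. THBS2 measured 857, 809 and 776 CPM in DMSO and 491, 477 and 493 CPM in AS1842856 (replicates A, B and C). All AS1842856 libraries lay below all DMSO libraries, by a smaller factor than in THBS1. The means were 814 ± 41.0 and 487 ± 8.53 CPM (SD, n = 3), a log2 fold change of -0.74 (standard error 0.03). Per length, the FPKM of THBS1 was 0.731 ± 0.0105 times that of THBS2 in DMSO and 0.231 ± 0.00392 times with AS1842856 (SD, n = 3), a change of -1.66 on the log2 scale in a ratio that no library scaling can move.

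FSTL1 (ENSG00000163430, chromosome 3 from 120392293 to 120451253, minus strand) encodes follistatin-like 1, a secreted glycoprotein of the SPARC family that binds BMP ligands. FSTL1 measured 2621, 2568 and 2545 CPM in DMSO and 616, 608 and 598 CPM in AS1842856 (replicates A, B and C). Its replicates differed by little in either group, and the groups were far apart. The means were 2578 ± 39.3 and 608 ± 9.05 CPM (SD, n = 3), 4.24-fold lower with AS1842856, a log2 fold change of -2.09 (standard error 0.03). The FPKM of FSTL1 was 3.19 ± 0.0744 times that of THBS1 in DMSO and 3.96 ± 0.140 times with AS1842856 (SD, n = 3), a change of 0.32 on the log2 scale, so FSTL1 was lowered by somewhat less than THBS1. MIR198, which lies in an exon of FSTL1, had no counts in the table.

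SPARC (ENSG00000113140, chromosome 5 from 151661096 to 151687165, minus strand) encodes osteonectin, a collagen-binding glycoprotein that guides fibril assembly. SPARC measured 1255, 1187 and 1146 CPM in DMSO and 864, 877 and 849.9 CPM in AS1842856 (replicates A, B and C). The decrease was small beside that of FSTL1, its family member, but the groups were separate. The means were 1196 ± 55.1 and 864 ± 13.6 CPM (SD, n = 3), a log2 fold change of -0.47 (standard error 0.03), the smallest among the 9 genes.

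POSTN (ENSG00000133110, chromosome 13 from 37562583 to 37598844, minus strand) encodes periostin, a binder of collagen, fibronectin and integrins. POSTN measured 42.5, 45.1 and 46.8 CPM in DMSO and 17.1, 24.4 and 20.6 CPM in AS1842856 (replicates A, B and C). Its AS1842856 libraries were spread most widely for their level among the 9 genes. The means were 44.8 ± 2.13 and 20.7 ± 3.67 CPM (SD, n = 3), a log2 fold change of -1.10 (standard error 0.07), which ran from -1.25 without AS1842856 replicate B to -0.98 without AS1842856 replicate A.

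TNC (ENSG00000041982, chromosome 9 from 115019578 to 115118257, minus strand) encodes tenascin-C, a hexameric glycoprotein of developing and wounded tissue that loosens adhesion to fibronectin. TNC measured 95.6, 91.2 and 85.8 CPM in DMSO and 316, 325 and 335 CPM in AS1842856 (replicates A, B and C). All AS1842856 libraries lay above all DMSO libraries. The means were 90.9 ± 4.92 and 325 ± 9.40 CPM (SD, n = 3), 3.58-fold higher with AS1842856, a log2 fold change of 1.84 (standard error 0.04). By fold change TNC was the 242nd from the highest of the 14338 genes.

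Among the structural glycoproteins, FN1 was higher and FBN1 lower with AS1842856. FN1 (ENSG00000115414, chromosome 2 from 215360440 to 215436172, minus strand) encodes fibronectin and measured 479, 455 and 415 CPM in DMSO and 958, 1001 and 985 CPM in AS1842856 (replicates A, B and C). The 2 groups were far apart beside their spread. The FN1 means were 449.5 ± 32.4 and 981 ± 21.8 CPM (SD, n = 3), 2.18-fold higher with AS1842856, a log2 fold change of 1.13 (standard error 0.03). FBN1 (ENSG00000166147, chromosome 15 from 48408306 to 48645849, minus strand) encodes fibrillin-1 and measured 225, 219.7 and 194 CPM in DMSO and 113, 112 and 113 CPM in AS1842856. Its 3 AS1842856 libraries were almost alike, and all lay below the DMSO libraries. The FBN1 means were 213 ± 16.6 and 113 ± 0.162 CPM (SD, n = 3), a log2 fold change of -0.92 (standard error 0.04). The FPKM of SPARC was 9.55 ± 0.305 times that of FN1 in DMSO and 3.16 ± 0.0719 times with AS1842856 (SD, n = 3), a change of -1.60 on the log2 scale.

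Of the 2 proteoglycans, VCAN was higher with AS1842856 and BGN was barely counted. VCAN (ENSG00000038427, chromosome 5 from 83471465 to 83582303, plus strand) encodes versican, a large hyaluronan-binding chondroitin sulfate proteoglycan. It measured 112, 104 and 104 CPM in DMSO and 383, 424 and 389 CPM in AS1842856 (replicates A, B and C). AS1842856 replicate B was the highest of its group, and all 3 stood above DMSO. The VCAN means were 107 ± 4.64 and 399 ± 22.0 CPM (SD, n = 3), 3.74-fold higher with AS1842856, a log2 fold change of 1.90 (standard error 0.04). The FPKM of VCAN was 0.764 ± 0.0245 times that of TNC in DMSO and 0.796 ± 0.0460 times with AS1842856 (SD, n = 3), and the ranges of the groups overlapped. BGN (ENSG00000182492, chromosome X from 153494939 to 153509554, plus strand) encodes biglycan, a small leucine-rich proteoglycan, and had 10, 2 and 10 counts in DMSO and 6, 5 and 0 in AS1842856. Its groups overlapped, it failed the filter, and no fold is given. The count of 0 in AS1842856 replicate C allows up to 3 counts, 0.168 CPM in that library. This bound covers counting error only and not variation between samples, and reads had no molecular identifiers.

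**Figure D2:**
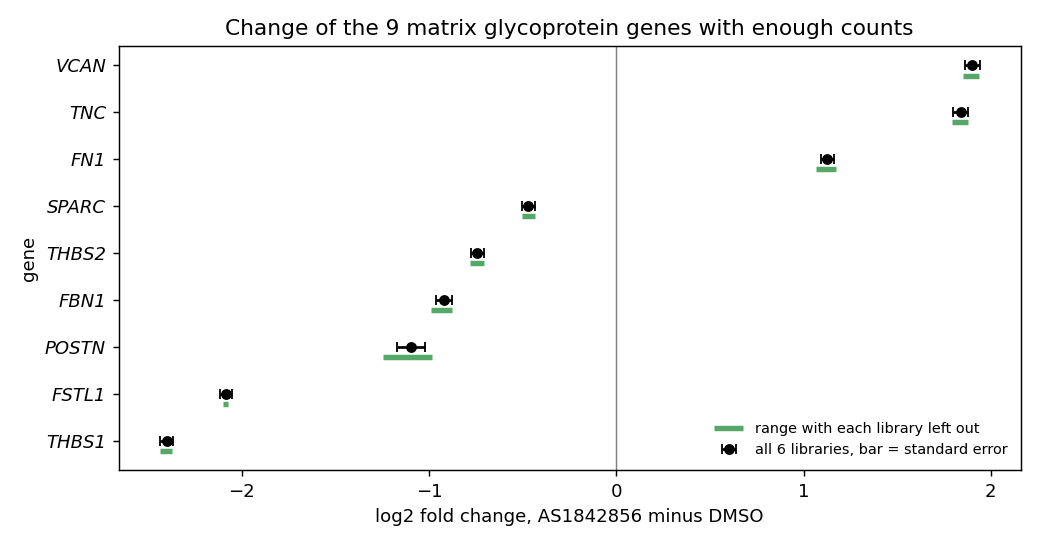
Log2 fold change of AS1842856 minus DMSO for the 9 genes with enough counts, with the standard error (black) and the range over 6 fits that each leave out 1 library (green). The 6 lower genes run from -2.40 in THBS1 to -0.47 in SPARC and the 3 higher ones from 1.13 in FN1 to 1.90 in VCAN, and no range reaches 0.

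**Figure D3:**
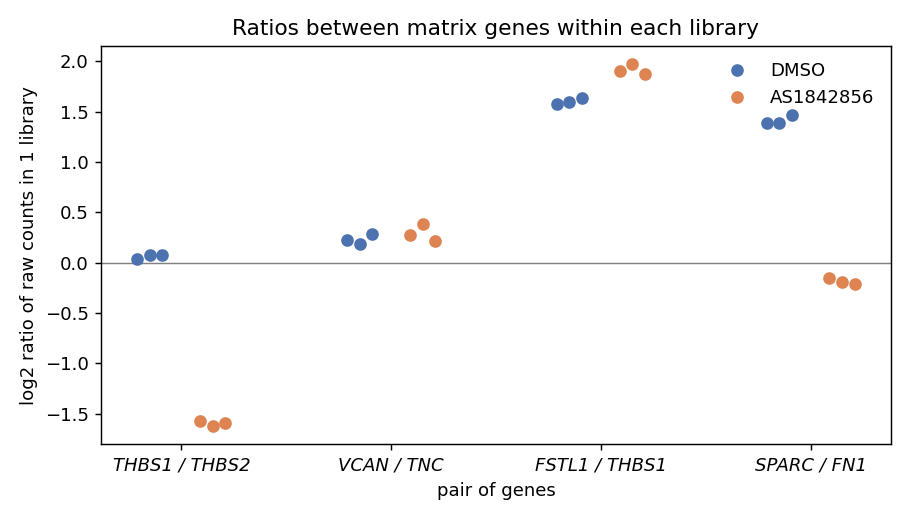
Log2 ratio of raw counts between pairs of matrix genes within each library, 3 points per group. THBS1 to THBS2 and SPARC to FN1 drop by -1.66 and -1.60 with AS1842856, FSTL1 to THBS1 shifts by 0.32 and VCAN to TNC stays within its spread.

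Levels of different genes were compared per length, as the FPKM values deposited by the authors, in which the gene length implied by the counts was 100.5% of the summed length of all GENCODE 29 exons for each of the 10 genes. In DMSO the order by mean FPKM was FSTL1 (294 FPKM), SPARC (246), THBS2 (126), THBS1 (92.2), FN1 (25.8), FBN1 (13.2), TNC (9.37), POSTN (8.15), VCAN (7.15) and BGN (0.152). With AS1842856 the order was SPARC (178 FPKM), THBS2 (75.5), FSTL1 (69.2), FN1 (56.3), TNC (33.6), VCAN (26.7), THBS1 (17.5), FBN1 (6.97), POSTN (3.77) and BGN (0.0783). No 2 neighbours in either order had overlapping ranges over the 3 libraries. FSTL1 moved from the first place to the third and THBS1 from the fourth to the seventh, while TNC went from the seventh to the fifth and VCAN from the ninth to the sixth. With the length of the principal transcript in place of all exons, TNC and POSTN exchanged places in DMSO, and THBS2 and FN1 exchanged places with AS1842856.

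The make-up of the summed FPKM of the 10 genes moved accordingly. The sum was 822 ± 29.1 FPKM in DMSO and 467 ± 3.70 FPKM with AS1842856 (SD, n = 3). FSTL1 made up 35.7 ± 0.708% of it in DMSO and 14.8 ± 0.240% with AS1842856, and THBS1 11.2 ± 0.0671% and 3.74 ± 0.150%. SPARC, although lower in level, took 29.9 ± 0.338% in DMSO and 38.0 ± 0.371% with AS1842856. FN1 went from 3.14 ± 0.124% to 12.1 ± 0.208%, TNC from 1.14 ± 0.0236% to 7.18 ± 0.217% and VCAN from 0.870 ± 0.0171% to 5.72 ± 0.271%. Among the 25015 genes with a FPKM listed, FSTL1 held ranks 79 to 82 in the DMSO libraries and 569 to 598 in the AS1842856 libraries, and THBS1 ranks 388 to 423 and 2795 to 2958. TNC held ranks 4610 to 4966 in DMSO and 1382 to 1473 with AS1842856, and VCAN ranks 5507 to 5778 and 1735 to 1913.

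**Figure D4:**
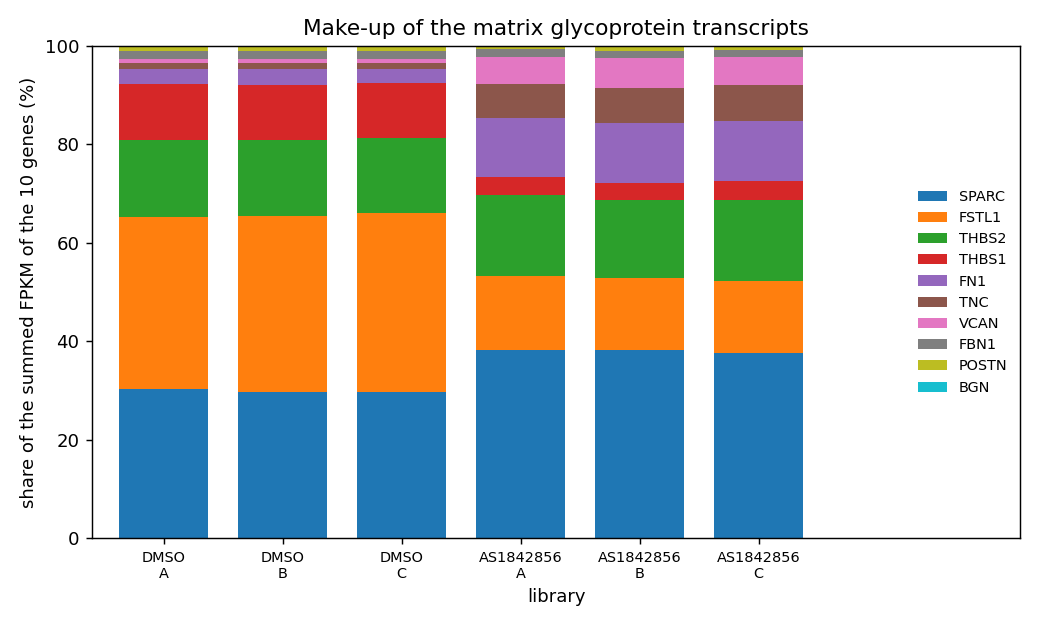
Share of the summed FPKM of the 10 genes (%) taken by each gene, 1 bar per library, stacked to 100%. FSTL1 shrinks from 35.7% to 14.8% on average with AS1842856 and THBS1 from 11.2% to 3.74%, while FN1, TNC and VCAN widen to 12.1%, 7.18% and 5.72%.

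Protein-coding genes with the pattern most like 4 of these genes were found by the distance over the 6 libraries between log2 CPM values centred on DMSO, among 11579 candidates. With only 2 groups, this distance mostly reflects a like fold change. The 3 genes nearest to THBS1, at -2.40, had log2 fold changes of -2.40, -2.41 and -2.43. For THBS1 they were WNT7B, a WNT ligand (distance 0.0794), CTGF, a matricellular protein also called CCN2 (0.0933), and EFEMP1, fibulin-3 (0.151). For FSTL1 they were PLK2, a polo-like kinase (0.0637), FAM20C, a kinase of secreted proteins (0.0935), and GPRC5A, an orphan receptor (0.103). For TNC they were ZNRF3, a ubiquitin ligase that removes WNT receptors (0.0878), CD109, a surface co-receptor of TGF-beta (0.138), and COL16A1, a fibril-associated collagen (0.161). For VCAN they were LPCAT2, a lipid acyltransferase (0.114), SIPA1L2 (0.158) and MMP2, gelatinase A (0.165). CTGF and EFEMP1 also belong to the lists described next.

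Other genes of the same biology were taken from 6 lists written from general knowledge, and each count below stands beside the 27.6% of all genes tested that were higher and the 28.4% that were lower. The median log2 fold change of all genes tested was 0.00. Calls in the next paragraphs use edgeR's quasi-likelihood test with Benjamini-Hochberg adjustment over all 14338 genes.

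Of 24 other matricellular genes, 10 were tested, 4 higher, 4 lower and 2 not called, with a median of -0.12. FST, follistatin, an activin binder, measured 3.87, 4.49 and 4.41 CPM in DMSO and 38.0, 42.0 and 37.7 CPM with AS1842856 (log2 fold change 3.21, standard error 0.10, adjusted p = 4.35e-85). NOV, also called CCN3, rose from 5.40 to 23.1 CPM (log2 fold change 2.11), and TGFBI, an adhesion protein, from 1269 to 2220.2 CPM (0.81). CTGF measured 461, 453 and 417 CPM in DMSO and 87.8, 81.6 and 80.8 CPM with AS1842856, with a log2 fold change of -2.41 at an adjusted p of 4.57e-141 (standard error 0.04). CYR61, also called CCN1, fell from 913 to 194 CPM (-2.24) and FSTL3, a follistatin-like activin binder, from 41.6 to 28.0 CPM (-0.58). The CCN family thus held members in both directions, CCN1 and CCN2 lower and CCN3 higher, and so did the follistatin family, FSTL1 and FSTL3 lower and FST higher.

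Of 18 microfibril and elastic fibre genes, 12 were tested, 4 higher and 8 lower, with a median of -0.64. FBN2, the fibrillin of early development, measured 159, 149.95 and 137 CPM in DMSO and 278, 289 and 279 CPM with AS1842856 (log2 fold change 0.92, standard error 0.04, adjusted p = 6.79e-61), the opposite direction to FBN1. EMILIN2, an elastin microfibril interface protein, rose from 0.719 to 2.35 CPM (1.68) and LTBP1, a binder of latent TGF-beta, from 82.4 to 103 CPM (0.33). EFEMP1 measured 122, 124 and 124 CPM in DMSO and 23.4, 23.4 and 21.9 CPM with AS1842856 (-2.43, standard error 0.06, adjusted p = 2.06e-115). FBLN1, fibulin-1, fell from 7.26 to 2.53 CPM (-1.53) and LTBP2, a microfibril-associated protein, from 231 to 84.3 CPM (-1.45).

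Of 18 matrix proteoglycan and link protein genes, 2 were tested, and both were lower. CSPG4, a membrane-spanning chondroitin sulfate proteoglycan, fell from 27.0 ± 1.96 to 5.37 ± 1.60 CPM (SD, n = 3, log2 fold change -2.36), and HSPG2, perlecan of basement membranes, from 26.9 ± 2.58 to 15.8 ± 1.47 CPM (-0.77). The other 16 had at most 18 counts in any library. ACAN, aggrecan, and HAPLN1, the link protein that ties versican and aggrecan to hyaluronan, had no counts in any library. DCN, decorin, and LUM, lumican, small leucine-rich proteoglycans like biglycan, had at most 3 counts.

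Of 21 genes for the enzymes that build and modify chondroitin sulfate chains, 17 were tested, 3 higher, 9 lower and 5 not called, with a median of -0.22. CSGALNACT1, which starts the repeating chain on the linker, fell from 13.7 ± 1.18 to 2.43 ± 0.366 CPM (SD, n = 3, log2 fold change -2.51, standard error 0.15, adjusted p = 3.84e-41). CHST3, a 6-O-sulfotransferase, fell from 159.6 to 86.1 CPM (-0.89). DSE, the epimerase that makes dermatan sulfate, had a log2 fold change of -0.92, but 589 of its exon bases lie opposite exons of TSPYL1, which had 346% as many counts, so its counts are uncertain. B3GAT3, which adds the last sugar of the linker (0.66), UST, a 2-O-sulfotransferase (0.65), and CHST11, a 4-O-sulfotransferase (0.64), were higher. CHSY1, CHPF and CHPF2, of the polymerase, had log2 fold changes of -0.08, -0.08 and 0.01 and were not called.

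Of 16 ADAMTS, tolloid and related genes that cleave matrix proteins or aid that cleavage, 12 were tested, 3 higher, 5 lower and 4 not called, with a median of -0.13. ADAMTS14, a procollagen N-proteinase, measured 3.64, 4.95 and 5.22 CPM in DMSO and 78.7, 78.2 and 83.5 CPM with AS1842856 (log2 fold change 4.14, standard error 0.08, adjusted p = 1.73e-126). TLL1, a tolloid-like proteinase that cuts procollagens, rose from 0.435 ± 0.0627 to 5.57 ± 0.380 CPM (SD, n = 3, 3.67), and ADAMTS15, which can cleave versican, from 1.83 to 4.13 CPM (1.17). ADAMTS2, another procollagen N-proteinase, fell from 15.2 to 2.84 CPM (-2.42) and ADAMTS3, of the same group, from 10.8 to 4.69 CPM (-1.19). FURIN, the convertase that trims profibrillin, fell from 24.8 to 13.5 CPM (-0.88). The 3 procollagen N-proteinases thus did not move together. ADAMTS1 and ADAMTS4, proteinases that cleave versican, had log2 fold changes of -0.19 and 0.04 and were not called.

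Of 19 receptor genes for these proteins, 13 were tested, 2 higher, 7 lower and 4 not called, with a median of -0.14. SDC1, syndecan-1, measured 71.1, 70.4 and 70.8 CPM in DMSO and 192, 202 and 193 CPM with AS1842856 (log2 fold change 1.47, standard error 0.04, adjusted p = 3.54e-94). SDC4, syndecan-4, a co-receptor for fibronectin, fell from 120.0 ± 5.17 to 53.1 ± 0.923 CPM (SD, n = 3, -1.18), so the 2 syndecans moved in opposite directions. CD47, a thrombospondin-1 receptor, rose by 0.13 on the log2 scale, from 104 to 114 CPM (adjusted p = 0.00834). ITGB3, the beta chain of the vitronectin receptor, fell from 3.64 to 0.693 CPM (-2.37), and CD44, the hyaluronan receptor, from 897 to 655 CPM (-0.45). ITGA5, the alpha chain of the main fibronectin receptor, had a log2 fold change of -0.01, and DIP2A, a receptor of FSTL1, of -0.12. CD36, a receptor of thrombospondin-1, had a log2 fold change of 0.39 (standard error 0.47). It was barely counted, at means of 0.467 CPM in DMSO and 0.635 CPM with AS1842856 and at most 13 counts in any library. None of these 3 was called.

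**Figure D5:**
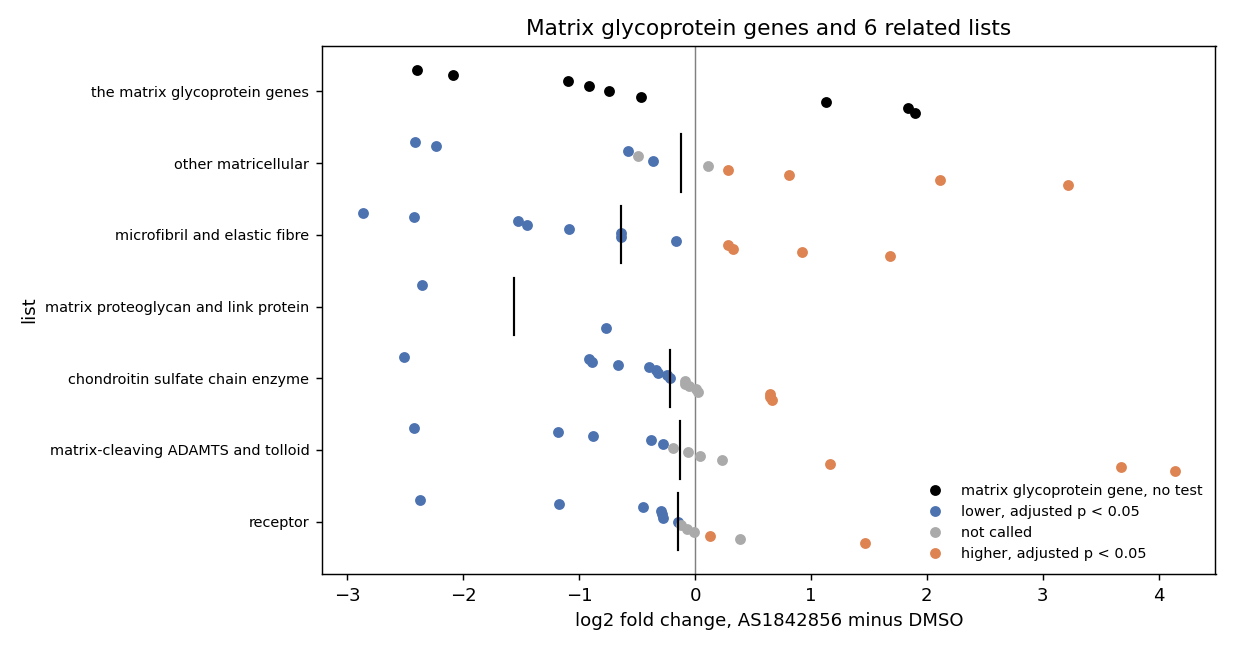
Log2 fold change of AS1842856 minus DMSO for each tested gene of 6 lists (coloured by call) and for the 9 matrix glycoprotein genes with enough counts (black, with no test), with a short line at the median of each list. Every list but that of the proteoglycans, where both tested genes were lower, holds genes on both sides of 0.

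Markers of the labelled cell type and of other cell types were measured beside these genes, all in libraries of the BT549 line. Of 8 fibroblast genes, 5 were tested and 4 were lower, and their summed level was 2590 to 2820 CPM in DMSO and 847 to 892 CPM with AS1842856, most of it COL1A1 and COL1A2. COL3A1 fell from 53.3 to 21.9 CPM, FAP was at 23.4 and 22.3 CPM and was not called, PDGFRB was under 1 CPM, and PDGFRA, DCN and LUM had at most 4 counts in any library. Summed endothelial markers were at most 0.360 CPM in any library. Summed immune markers were 1.13 to 2.15 CPM in DMSO and 3.48 to 4.65 CPM with AS1842856. PTPRC, the only 1 of the immune markers tested, was called higher, from 1.15 to 3.16 CPM. Summed breast epithelial markers were 121 to 129 CPM in DMSO and 40.9 to 44.2 CPM with AS1842856, of which KRT8 fell to 4.15, KRT18 to 3.45 and ERBB2 to 25.0 CPM, while KRT19 rose to 9.40 CPM. Of the 7 mesenchymal genes, ZEB1, ZEB2 and TWIST1 were called higher and VIM, CDH2, AXL and CD44 lower. Their summed level was 2915 to 3002 CPM in DMSO and 2182 to 2224 CPM with AS1842856. The part of these marker shifts in the levels of the matrix genes was not tested. Other genes that overlap the 10 held at most 0.442% as many counts as the gene they overlap, apart from HAUS7, which lies opposite BGN and shares no exon base with it.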

How the data were processed

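RNA-Seq of BT549 cells was analysed in 6 libraries, 3 per group, assigned from the labels. The authors deposited raw counts per gene, without normalization, and FPKM per library, which scales counts by gene length and depth. The published methods name STAR, while the submitters' processing notes name CASAVA and Bowtie 0.12.2 with GRCh38. The counting tool and the use of strand are not given in the sources used here. All gene identifiers were found in GENCODE 29 (Ensembl 94, GRCh38).

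The counts were tested in edgeR 4.0.16 (R 4.3.3): filterByExpr (minimum count 10, minimum total 15; 99.9% of counts kept), TMM scaling, glmQLFit with robust estimation, glmQLFTest, and Benjamini-Hochberg adjustment with a threshold of 0.05. Levels are TMM-normalized CPM. The 10 genes and the lists were chosen with earlier results of these data known. Named list genes were the 3 largest called increases and decreases with a mean of at least 1 CPM, and other genes named were chosen after their values were seen. Genes with like patterns were the 3 nearest by Euclidean distance on log2(CPM + 0.5). For a single gene, 3 against 3 libraries allow no exact two-sided permutation p below 0.1. Library pairs of 1 group differed by more than sampling noise (chi-square per degree of freedom 2.32 to 3.12). Alternatives used DESeq2 1.42.0, limma 3.58.1 on FPKM, other scalings and filters, a replicate block and each library left out. The fits were tested on simulated counts with 200 changed genes. The main edgeR fit recovered 88.5% of them, and 6.35% of its calls were false, somewhat above the threshold of 0.05. DESeq2 recovered 83.5%, with 1.76% of calls false. Far fewer genes were changed in the simulation than the 56% called in the real data, so it cannot show the share of false calls there. Promoters came from RefSeq (GRCh38.p14).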

Additional observations from a re-analysis of the deposited data

How the results depend on the processing

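Over all genes, 8029 were called, and 6660 to 8030 under the 8 alternatives with all libraries, the fewest with limma on log2(FPKM + 1). Without 1 library the count ran from 7427 to 7678. With the replicate block 7862 were called, and no call of a list gene changed. No sign of pairing by letter was seen: same-letter deviations correlated between -0.0654 and 0.0148, and other pairs between -0.0192 and 0.0802. Such correlations cannot show whether samples of the same letter were handled together. Counts of higher and lower genes in the 6 lists stayed within 1.5 times under every alternative run, and no fold change of the 9 tested genes changed sign. On the log2(FPKM + 1) scale, which shrinks changes of low genes, the log2 fold change was -2.34 for THBS1, 1.74 for TNC, -0.83 for FBN1 and 1.76 for VCAN. With principal transcript lengths, an alternative chosen after seeing the data, TNC ranked 8 and POSTN 7 in DMSO, and THBS2 ranked 4 and FN1 2 with AS1842856. Depth limits BGN, which had at most 10 counts in any library. The dose and the use of strand in counting are unresolved.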
